A study of Homo sapiens with 6 samples.

Results

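The genes described here carry iron into a cell, store it, sense it and free it from haem. The 10 members were fixed by name: TFRC, STEAP3 and SLC11A2 for uptake, FTH1, FTL and NCOA4 for storage and release from storage, SLC40A1 for export, IREB2 and ACO1 for sensing, and HMOX1 for haem breakdown. All 10 had a row among the 32078 named genes of the deposited count table, and 9 passed the filter on low counts. The libraries were poly(A) RNA of PANC-1, an established human pancreatic carcinoma cell line: 3 labelled as untreated controls and 3 labelled as given extracellular vesicles (EVs) from cancer-associated fibroblasts, the activated fibroblasts of tumour stroma. The comparison asked which transcripts differed in cells given these vesicles. The protocol text speaks of vesicles for all 6 libraries, so titles and treatment labels alone define the groups. No vesicle dose or duration stands in the sources used here. The labels do not state whether replicates are separate cultures, so the p-values here reflect library-to-library spread alone, part or all of which may be technical.

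Cells take up iron mainly as transferrin bound to the transferrin receptor. The complex is drawn into endosomes, where the iron is released, reduced and carried into the cytosol. Iron that is not used is stored in ferritin, a shell of heavy and light chains, or leaves through ferroportin. When iron is scarce, iron regulatory proteins bind short stem-loops in the untranslated regions (UTRs) of messenger RNAs. Bound near the start of a message they block its translation, and bound behind the coding part of the transferrin receptor message they protect it from decay. Haem oxygenase opens the haem ring and frees its iron, and its gene is repressed by BACH1 and driven by NRF2.

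The stem-loops are shown because they tie the uptake and storage genes to the same sensors. A search of 1 principal GENCODE transcript per gene for CNNNNNCAGTGN, on the transcript strand, with A, C or T as the last base and all 5 bases between C and the loop paired across it (G with T allowed), found a match in 4 of the 10 members. Capitals mark the 6-base loop, the letters are DNA, and each run is 30 bases, 5′ to 3′.
FTH1, 5′ UTR, GRCh38 chr11:61967575-61967604, minus strand: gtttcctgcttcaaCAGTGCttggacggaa
FTL, 5′ UTR, GRCh38 chr19:48965333-48965362, plus strand: gtctcttgcttcaaCAGTGTttggacggaa
SLC40A1, 5′ UTR, GRCh38 chr2:189580662-189580691, minus strand: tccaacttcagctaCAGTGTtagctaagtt
TFRC match 1, 3′ UTR, GRCh38 chr3:196050980-196051009, minus strand: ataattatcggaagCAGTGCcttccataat
TFRC match 2, 3′ UTR, GRCh38 chr3:196050576-196050605, minus strand: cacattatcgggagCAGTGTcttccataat
TFRC match 3, 3′ UTR, GRCh38 chr3:196050511-196050540, minus strand: gtctgtatcggagaCAGTGAtctccatatg
TFRC match 4, 3′ UTR, GRCh38 chr3:196050464-196050493, minus strand: gtaattatcgggaaCAGTGTttcccataat
Both ferritin runs differed at 3 of 30 positions, counted from 1 at the 5′ end of the run with the FTH1 base first: T3C, C6T and C20T. Among 19519 principal transcripts of protein-coding genes, 0.0615% held a match in the 5′ UTR and 0.415% in the 3′ UTR. The match is a description of letters, and the other 6 members had none by this strict rule. Stem-loops with an unpaired base beside the loop, or on other transcripts of a gene, would be missed. A lack of a match therefore does not show that a stem-loop is absent, and the number found may be too low. Positions are from GENCODE release 29 on GRCh38, while the submitters' processing notes name hg19.

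**Figure D1:**
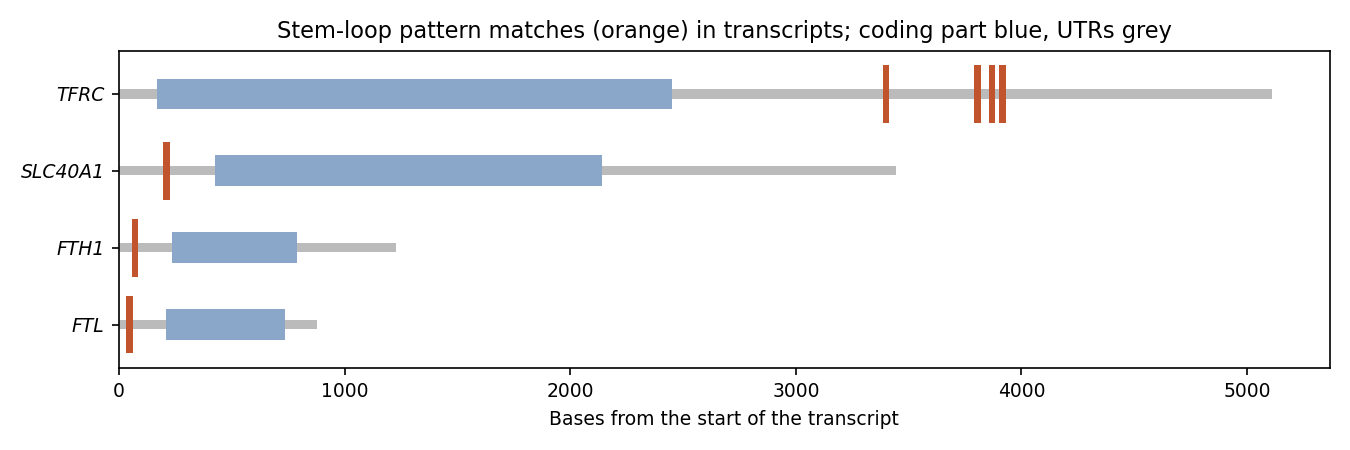
Principal GENCODE transcripts of TFRC, SLC40A1, FTH1 and FTL drawn to scale in bases from the transcript start (x axis), with the coding part in blue, UTRs in grey and pattern matches in orange. The 4 matches of TFRC lie behind its coding part, and the single matches of SLC40A1, FTH1 and FTL lie before theirs.

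In the EV-labelled libraries the transferrin receptor gene TFRC was 1.75-fold higher, the sensor gene IREB2 1.27-fold higher and the endosomal ferrireductase gene STEAP3 1.16-fold higher. The ferritin heavy chain gene FTH1 was 1.34-fold lower and the haem oxygenase gene HMOX1 1.31-fold lower. These 5 of 9 tested members were called at an adjusted p under 0.05 in edgeR's quasi-likelihood test with Benjamini-Hochberg adjustment over 14670 genes, where 40.9% of all tested genes were called. The count is therefore near what the whole table gives, with 3 members called higher (20.2% of all tested genes) and 2 lower (20.7%). The median log2 fold change of the 9 was 0.02, and that of all tested genes was -0.01. In bulk RNA a change in level per cell cannot be told apart from a change in the share of cells that express a gene. All adjusted p-values below come from this fit unless another tool is named.

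Libraries held 21669757 to 27535620 counts, and libraries of the same group differed by more than sampling noise. Of 6 markers chosen for the line, KRT8, KRT18, KRT19 and VIM were tested, KRT7 had 1 to 10 counts per library and EPCAM had 0 in all. Of the 4 tested, 2 were called lower. Of 12 erythroid markers, which would accompany cells of the red blood cell lineage, 6 had a row in the count table. These summed to at most 0.222 CPM in any library, with HBB and ALAS2 at 0. Of 12 macrophage markers, which would accompany iron-recycling cells, 8 had a row. They summed to at most 0.629 CPM, with MARCO, C1QB and SPIC at 0. The fibroblast list, with a row for 11 of 12 genes, summed to 377 to 414 CPM in control-labelled libraries. In EV-labelled libraries it summed to 365 to 407 CPM. Its members DCN, LUM, POSTN and THY1 were at 0 in all, while COL1A2 was called higher and COL6A3 and ACTA2 lower.

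**Figure D2:**
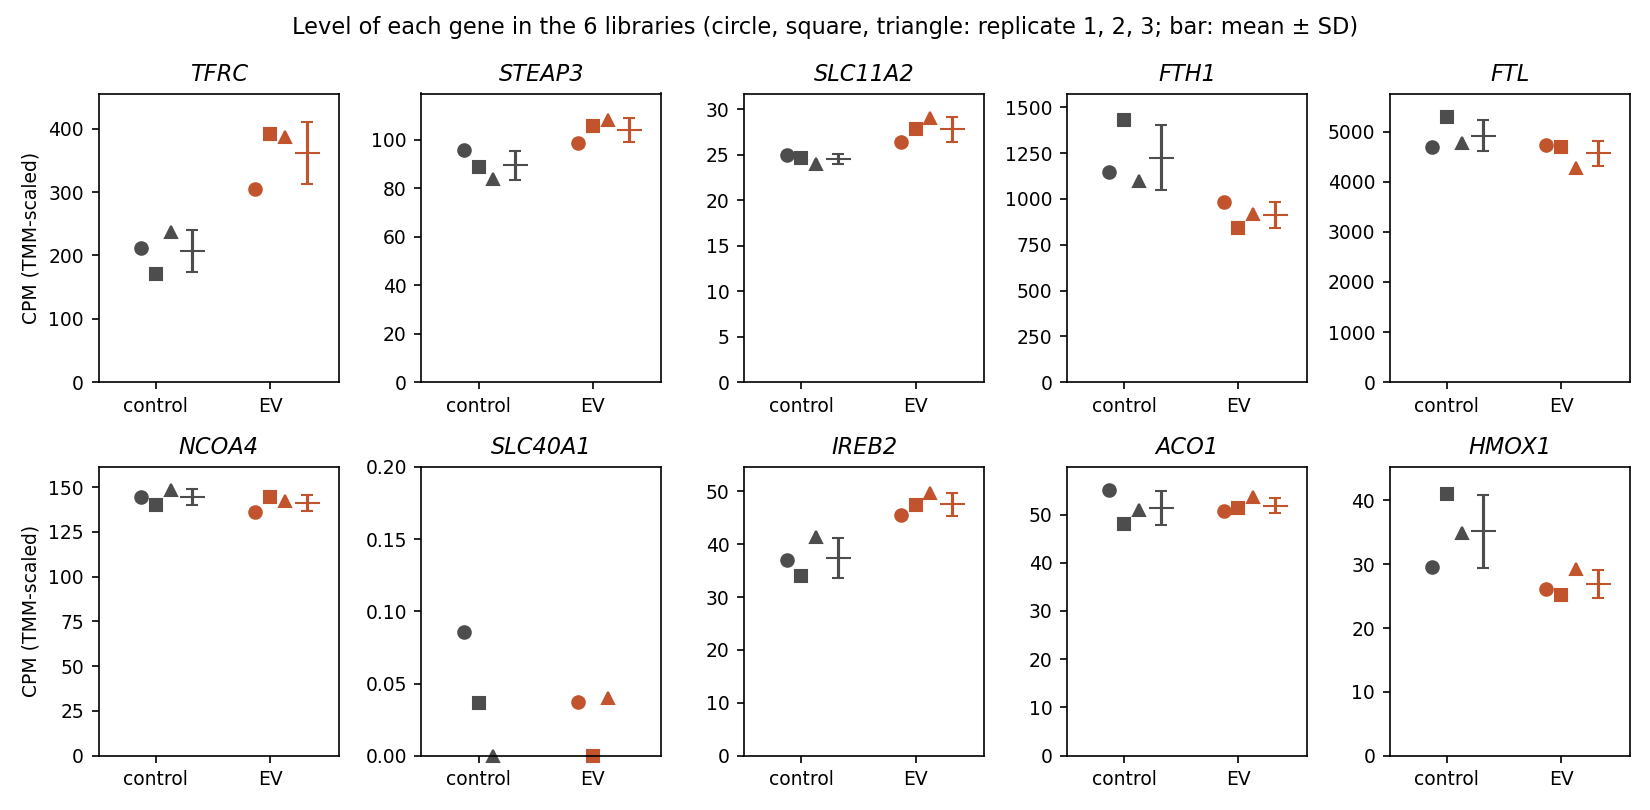
Level of each of the 10 genes in CPM (TMM-scaled, y axes from 0, each with its own scale) in 3 control-labelled (grey) and 3 EV-labelled (orange) libraries, with symbols for replicates and bars for mean ± SD (none for SLC40A1, which had 0 to 2 counts). TFRC, STEAP3, SLC11A2 and IREB2 are higher in every EV-labelled library, and FTH1 and HMOX1 lower.

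TFRC, the receptor for transferrin, was at 211, 171 and 237 CPM (counts scaled by library size and TMM factor, as defined for edgeR) in control replicates 1 to 3. It was at 305, 392 and 387 CPM in EV replicates 1 to 3. All EV-labelled libraries lay above all controls. The means were 206 ± 33.1 and 361 ± 48.7 CPM (SD, n = 3 each). The fitted log2 fold change was 0.81 ± 0.10 (SE, adjusted p = 3.04e-06). This was above 98.2% of all tested genes when ranked by log2 fold change, and 1.6% of tested genes were called higher with at least this fold.

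STEAP3, which reduces ferric iron in the endosome, was at 95.9, 88.6 and 83.9 CPM in the controls. The EV-labelled libraries held 98.5, 105 and 108 CPM. The groups did not overlap, but control replicate 1 came close to EV replicate 1. The log2 fold change was 0.22 ± 0.06 (adjusted p = 0.0108).

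SLC11A2, the transporter (DMT1) that carries the reduced iron into the cytosol, was at 25.0, 24.7 and 23.9 CPM in the controls. It was at 26.4, 27.9 and 29.05 CPM in the EV-labelled libraries. The groups did not overlap, yet the difference missed the threshold, with a log2 fold change of 0.18 ± 0.08 (adjusted p = 0.0676). The 95% interval of its fold ran from 1.01 to 1.26. Among the 9 tested members, 6 had groups that did not overlap, while 50.6% of all tested genes did so. The 3 uptake genes thus lay higher in every EV-labelled library, by amounts that differed between genes.

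FTH1, the ferritin heavy chain that oxidises iron for storage, was at 1148, 1429 and 1098 CPM in the controls. It was at 984, 841 and 918 CPM in the EV-labelled libraries. Every EV-labelled library lay below every control. The log2 fold change was -0.42 ± 0.08 (adjusted p = 0.000417), with means of 1225 ± 179 and 914 ± 71.4 CPM.

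FTL, the light chain, was the gene of rank 6 by mean CPM among all tested genes. It was at 4703, 5284 and 4777 CPM in the controls and at 4728, 4700 and 4279 CPM in the EV-labelled libraries. The groups overlapped, with EV replicate 1 above control replicate 1. The log2 fold change was -0.11 ± 0.06 (adjusted p = 0.175), and the 95% interval of the fold ran from 0.849 to 1.02. A fall of the size fitted for FTH1 (a fold of 0.747) lies outside that interval.

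NCOA4, the receptor that delivers ferritin to lysosomes for breakdown, was at 144, 140 and 149 CPM in the controls and 136, 145 and 143 CPM in the EV-labelled libraries. The groups overlapped. Its log2 fold change was -0.03 ± 0.06 (adjusted p = 0.675), with a 95% interval of the fold from 0.900 to 1.06.

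SLC40A1, which encodes ferroportin, the known iron exporter of animal cells, had 2, 1 and 0 counts in the controls against 1, 0 and 1 in the EV-labelled ones. At a count of 0 the upper limit is 3 counts, or 0.110 to 0.138 CPM depending on the library, which covers counting error only. All libraries were at or below that floor, so it was not tested and no fold is given. A fall or a small rise in this gene was not detectable at this depth.

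IREB2 (iron regulatory protein 2), which is degraded in iron-replete cells, was at 37.1, 33.9 and 41.4 CPM in the controls. It was at 45.5, 47.5 and 49.8 CPM in the EV-labelled libraries, all above the controls. The log2 fold change was 0.34 ± 0.08 (adjusted p = 0.00132). ACO1 (iron regulatory protein 1), a cytosolic aconitase when it holds an iron-sulphur cluster, was at 55.05, 48.1 and 50.8 against 50.6, 51.3 and 53.6 CPM. The ACO1 groups overlapped (log2 fold change 0.02 ± 0.07, adjusted p = 0.878, 95% interval of the fold 0.917 to 1.11).

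HMOX1, the inducible haem oxygenase, was at 29.6, 41.1 and 34.9 CPM in the controls and at 26.1, 25.2 and 29.3 CPM in the EV-labelled libraries. The groups did not overlap, but EV replicate 3 and control replicate 1 nearly met. The log2 fold change was -0.39 ± 0.10 (adjusted p = 0.00367).

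**Figure D3:**
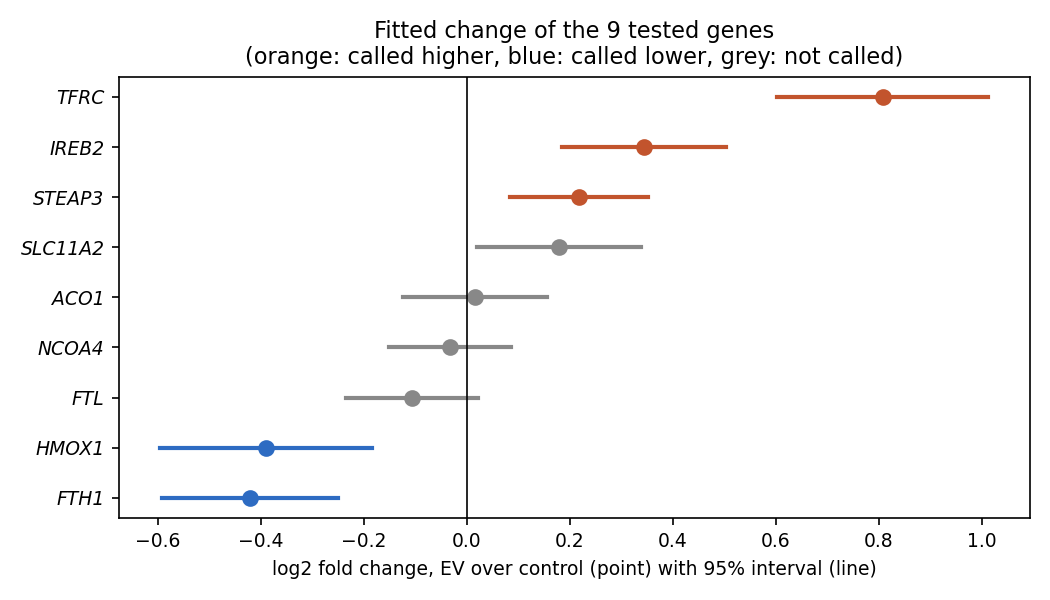
Fitted log2 fold change of EV-labelled over control-labelled libraries (x axis) for the 9 tested genes, with 95% intervals from the fitted SE. TFRC stands highest at 0.81, FTH1 and HMOX1 lowest at -0.42 and -0.39, and the grey genes SLC11A2, ACO1, NCOA4 and FTL were not called.

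The controls varied among themselves in several members together. Control replicate 2 had the lowest TFRC, IREB2 and ACO1 of the 3 controls and the highest FTH1, FTL and HMOX1. Without that library the log2 fold changes were 0.69 for TFRC (adjusted p = 6.39e-06), -0.30 for FTH1 (adjusted p = 0.00246), 0.28 for IREB2 (adjusted p = 0.00855) and -0.26 for HMOX1 (adjusted p = 0.0313). All 4 stayed called, with smaller values.

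Ratios within a library do not depend on scaling between libraries, and gene length cancels in their difference. The log2 ratio of TFRC to FTH1 counts was -2.44, -3.06 and -2.21 in the controls and -1.69, -1.10 and -1.25 in the EV-labelled libraries. All EV-labelled ratios were higher, by 1.23 between the means, which is 2.34-fold. The FTL to FTH1 log2 ratio was 2.03, 1.89 and 2.12 against 2.26, 2.48 and 2.22, a difference of 0.31. The IREB2 to ACO1 log2 ratio was -0.57, -0.50 and -0.30 against -0.15, -0.11 and -0.11, a difference of 0.33. In each of the 3 ratios the groups did not overlap. For TFRC to FTH1 this had to be so, because every EV-labelled library lay above every control for TFRC and below for FTH1. That ratio and its test therefore add no separate evidence. With 3 libraries a group the exact two-sided permutation test cannot go below p = 0.1, the value that each ratio reached (0.1 after Benjamini-Hochberg adjustment over the 3).

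**Figure D4:**
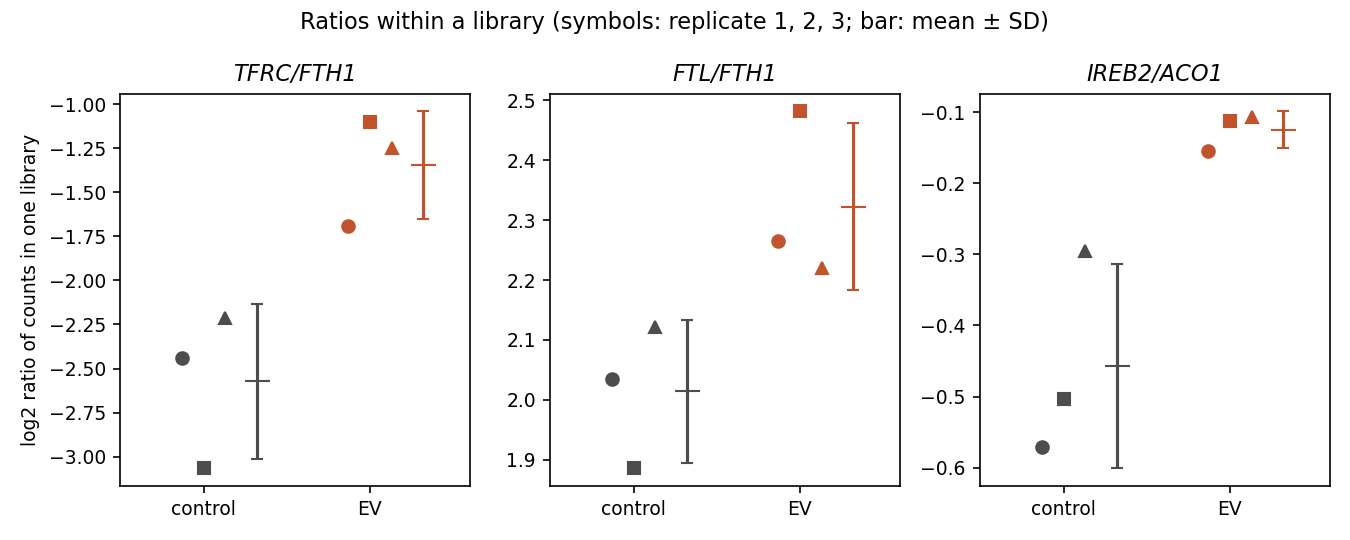
Log2 ratio of counts of 2 genes in the same library (y axes, each with its own scale, not starting at 0) in control-labelled (grey) and EV-labelled (orange) libraries, with symbols for replicates and bars for mean ± SD. In all 3 panels every EV-labelled library lies above every control.

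Per kilobase of the principal transcript, levels spanned a wide range. In the control-labelled libraries FTL was at 5605 ± 360 CPM per kilobase, FTH1 at 997 ± 145, NCOA4 at 62.6 ± 1.90 and TFRC at 40.4 ± 6.48. STEAP3 followed at 22.9 ± 1.54 and HMOX1 at 19.3 ± 3.15, with ranges that overlapped. Within each control library STEAP3 lay above HMOX1, though barely in control replicate 2. ACO1 (6.88 ± 0.468), IREB2 (5.90 ± 0.592) and SLC11A2 (5.89 ± 0.129) lay close together, and the range of IREB2 overlapped both others. Within each control library ACO1 lay above IREB2, while the order of IREB2 and SLC11A2 varied. In the EV-labelled libraries TFRC reached 70.7 ± 9.53 CPM per kilobase beside NCOA4 at 61.2 ± 1.87. IREB2 reached 7.49 ± 0.339 beside ACO1 at 6.945 ± 0.208. In both pairs the ranges overlapped, but within each EV-labelled library TFRC lay above NCOA4 and IREB2 above ACO1. In EV replicate 1 TFRC and NCOA4 were close. These lengths are those of GENCODE transcripts and may differ from the gene models the authors counted.

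Both ferritin genes have processed pseudogenes with near-identical sequence, so their reads can be split. The 15 rows named as FTH1 pseudogenes held 0.388% to 0.588% as many counts as FTH1, and the 5 named for FTL 0.336% to 0.446%. With those counts added to the parent gene, FTH1 stayed called lower and FTL uncalled. Genes on the opposite strand overlap FTH1 and STEAP3, and no source used here says if strand was used in counting. BEST1 had at most 24 counts in a library beside at least 18355 for FTH1, and STEAP3-AS1 at most 4 beside at least 2238 for STEAP3.

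In the authors' deposited table, whose fold changes are control over EV, TFRC had a log2 fold change of -0.82 (q = 1.15e-11) and FTH1 of 0.41 (q = 0.000208). The authors' deposited table gave q = 0.000191 for IREB2, 0.00554 for STEAP3, 0.0063 for HMOX1 and 0.0593 for SLC11A2. None of the 10 members was marked up or down in the authors' deposited table. That mark is not the same as a q under 0.05, which TFRC, FTH1, IREB2, STEAP3 and HMOX1 had. Of all genes in that table, 24.5% had a q under 0.05, and the share marked is not given here. That table rests on the same libraries and is no independent support.

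Other genes of iron and haem handling were taken from 7 companion lists holding 103 genes, of which 82 were tested. Of these 25 were called higher and 18 lower, 52.4% together, beside 40.9% of all tested genes. The median log2 fold change was 0.04. The lists were chosen with earlier results of these data known, so the shares called, here and below, may reflect that choice.

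Among transferrin cycle and iron entry genes 2 of 10 tested were called higher and 3 lower, 50% together beside 40.9% of all tested genes. MCOLN1, a lysosomal channel that passes iron, was higher (log2 fold change 0.46 ± 0.08, adjusted p = 0.000204), as was the ferrireductase gene CYBRD1 (0.32 ± 0.08). Without control replicate 2 the value of CYBRD1 was 0.19 (adjusted p = 0.0246). SLC39A14, a plasma membrane carrier of iron not bound to transferrin, was at 357, 366 and 373 CPM in the controls and at 273, 270 and 284 CPM in the EV-labelled libraries (-0.41 ± 0.05). PICALM, a clathrin adaptor of receptor uptake, was also lower (-0.32 ± 0.06). LCN2, which binds iron-carrying siderophores, was lower at 2.51, 1.42 and 1.61 against 5.23, 10.4 and 6.42 CPM (-1.98 ± 0.24, adjusted p = 2.83e-06). The mitochondrial iron importers SLC25A37 (0.04 ± 0.06) and SLC25A28 (-0.01 ± 0.08) and the receptor partner HFE (0.05 ± 0.07) were not called.

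Of the storage and chaperone genes 4 of 10 were tested and only TAX1BP1, an adaptor of selective autophagy, was called (lower, -0.47 ± 0.06, adjusted p = 4.89e-06). The iron chaperone genes PCBP1 and PCBP2 were at 0.15 ± 0.07 (adjusted p = 0.0852) and -0.15 ± 0.06 (adjusted p = 0.0573). PCBP1 passed without control replicate 2 (adjusted p = 0.0374) and PCBP2 without control replicate 1 (adjusted p = 0.0206). The share called in this list was 25%, beside 40.9% of all tested genes. Of the regulators 3 of 8 tested were called higher and 2 lower, 62.5% together beside the same 40.9%. FBXL5, the iron-sensing ligase subunit that marks IREB2 protein for degradation, was at 0.11 ± 0.07 (adjusted p = 0.211). HIF1A (0.30 ± 0.05) and ERFE, which encodes the hormone erythroferrone (0.49 ± 0.11), were higher and ZFP36, an mRNA decay factor (-0.51 ± 0.11), was lower. FURIN was higher (0.20 ± 0.07), although its groups overlapped, and EPAS1 lower (-0.58 ± 0.19). FURIN missed the threshold without EV replicate 1 (adjusted p = 0.067) or 3 (0.0618) or control replicate 2 (0.0719) or 3 (0.0787). EPAS1 missed it without EV replicate 1 (adjusted p = 0.0611) or 3 (0.0723) or control replicate 1 (0.0874) or 3 (0.0636).

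Haem synthesis genes were mixed, with 4 of 12 tested called higher and 2 lower, 50% together beside 40.9% of all tested genes. ALAS1, the first and rate-limiting enzyme, was at 163, 176 and 173 CPM in the controls and at 136, 139 and 139 CPM in the EV-labelled libraries (log2 fold change -0.31 ± 0.06, adjusted p = 0.000264). CPOX, a later step, was higher at 35.0, 35.0 and 38.2 against 25.0, 19.7 and 24.0 CPM (0.66 ± 0.09, adjusted p = 8.53e-06). The mitochondrial transporter gene ABCB10 was higher (0.52 ± 0.08) and the oxidase gene PPOX lower (-0.41 ± 0.12). FECH, which inserts iron into the ring, was at -0.12 ± 0.06 (adjusted p = 0.113). TMEM14C (0.21 ± 0.07) and UROS (0.17 ± 0.06) were called higher but not without EV replicate 1 (adjusted p = 0.0708 and 0.158), EV replicate 2 (0.0655 and 0.111) or control replicate 1 (0.124 and 0.096). Without control replicate 1 the value of TMEM14C was 0.14. The UROS groups overlapped, with EV replicate 3 at 97.9 and control replicate 3 at 98.8 CPM. UROS was also lost without control replicate 2 (adjusted p = 0.174), with the replicate number as a block (0.0629), with upper-quartile scaling (0.0798) and with a filter of 1 CPM in 3 libraries (0.0542). PPOX was lost without EV replicate 2 (0.0602).

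In haem breakdown and transport 6 of 12 tested genes were called higher and 1 lower, and the median change was 0.34 on the log2 scale. Together 58.3% were called, beside 40.9% of all tested genes. HMOX2, the constitutive haem oxygenase, was at 53.3, 56.8 and 53.8 CPM in the controls and at 64.2, 65.4 and 63.3 CPM in the EV-labelled libraries (0.23 ± 0.06, adjusted p = 0.00474). It was thus called higher where HMOX1 was called lower. BLVRA, which reduces biliverdin to bilirubin, was higher at 51.1, 51.2 and 47.4 against 33.1, 30.9 and 38.1 CPM (0.55 ± 0.08, adjusted p = 1.74e-05). BLVRB, the other biliverdin reductase, was not called (-0.08 ± 0.06, adjusted p = 0.368). The haem-binding membrane protein gene PGRMC1 (0.45 ± 0.06), the haem exporter gene FLVCR1 (0.47 ± 0.10) and SLC46A1, which carries folate and haem (0.64 ± 0.13), were higher. LRP1, a receptor for haemopexin-bound haem, was lower (-0.36 ± 0.11), but not without control replicate 1 (-0.20, adjusted p = 0.113) or EV replicate 2 (0.0584).

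Of 10 transcription regulators of HMOX1 and ferritin genes 7 were called lower and 1 higher, and the median change was -0.37 on the log2 scale. Of all tested genes 20.7% were called lower and 20.2% higher. BACH1, the haem-sensing repressor of HMOX1, was at 75.1, 71.8 and 79.5 CPM in the controls and at 51.5, 54.0 and 53.7 CPM in the EV-labelled libraries (-0.51 ± 0.06, adjusted p = 3.8e-06). NFE2L2, which encodes the activator NRF2, was at 90.8, 106 and 106 against 81.1, 79.0 and 80.0 CPM (-0.33 ± 0.07, adjusted p = 0.000489). The genes of the repressor and of the activator were both lower in every EV-labelled library. KEAP1, which marks NRF2 for degradation, was not called (0.10 ± 0.06, adjusted p = 0.201), and CUL3, its ligase scaffold, was higher (0.37 ± 0.06). MAFF, a small MAF partner, was lower at 22.1, 17.7 and 19.4 against 38.4, 46.5 and 40.9 CPM (-1.08 ± 0.09, adjusted p = 2.77e-08). NFE2L1 (-0.70 ± 0.06) and ATF3 (-2.17 ± 0.12) were lower too.

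Iron-sulphur cluster assembly, a main use of iron in mitochondria, had 9 of 26 tested genes called higher and 2 lower, with a median of 0.09. The share called, 42.3%, was near the 40.9% of all tested genes. CIAPIN1 (0.36 ± 0.06) and CIAO2A (0.47 ± 0.09) of the cytosolic pathway, GLRX5 (0.27 ± 0.06) and LYRM4 (0.32 ± 0.07) of the mitochondrial one had the lowest adjusted p among the higher genes. MMS19 (-0.25 ± 0.06) and the chaperone gene HSPA9 (-0.18 ± 0.06) were lower, and HSPA9 was lost without EV replicate 1 (adjusted p = 0.0767) or control replicate 2 (0.0508).

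**Figure D5:**
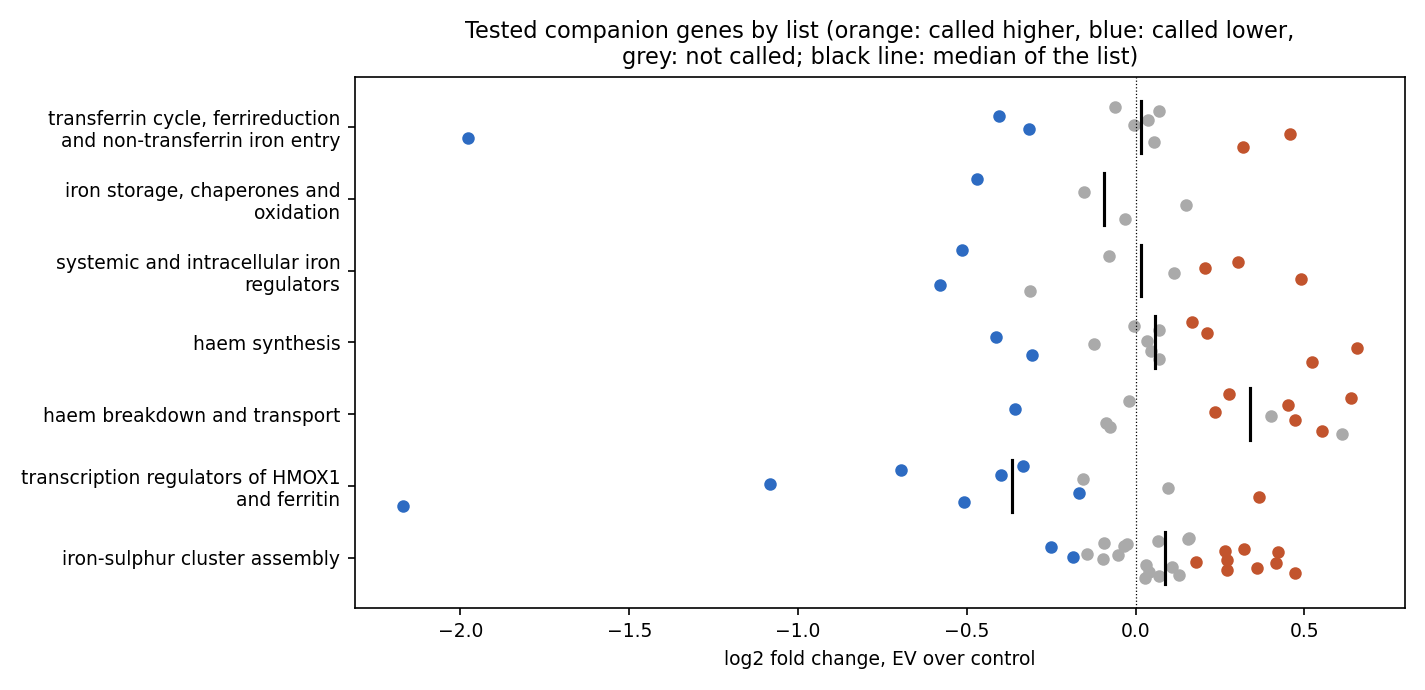
Log2 fold change of EV-labelled over control-labelled libraries (x axis) for each tested gene of the 7 companion lists (rows), coloured by call, with the median of each list as a black line. The regulators of HMOX1 and ferritin have the lowest median (-0.37) and haem breakdown and transport the highest (0.34).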

How the data were processed

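Members and companion lists were chosen with earlier results of these data known. The authors deposited raw counts per gene, whole numbers in 6 libraries, and a comparison table holding log2 mean abundance, log2 fold changes, p-values and q-values. TopHat, RSEM and hg19 are named in the submitters' processing notes, without versions or the step of each. Rows without a gene name (375 of 32453, with 0.099% to 0.134% of the counts of a library) were left out. The main test was that of edgeR 4.0.16 (R 4.3.3; glmQLFit, glmQLFTest, TMM factors, filterByExpr, prior count 0.125), two-sided, with Benjamini-Hochberg adjustment over 14670 genes and a threshold of 0.05. The SE is the log2 fold change divided by the square root of F, and intervals use it with the moderated degrees of freedom. The script was tested on simulated counts. All members were named. From each companion list the text names up to 4 called genes with the lowest adjusted p per direction, and a fixed set of others, of which 1 gene is not reported here. Alternatives were 3 scalings, 2 filters, each library left out, a replicate block, DESeq2 1.42.0, limma-voom (limma 3.58.1), a threshold of 0.01, pseudogene counts added and unnamed rows kept. Without molecular identifiers PCR copies cannot be told from molecules, so count limits cover counting error only.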

Additional observations from a re-analysis of the deposited data

How the results depend on the processing

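Across 17 alternatives TFRC ranged from 0.69 to 0.92 on the log2 scale, IREB2 from 0.28 to 0.42, FTH1 from -0.50 to -0.30 and HMOX1 from -0.50 to -0.26, all called in each. STEAP3 was not called at a threshold of 0.01 (0.22, adjusted p = 0.0108), and its adjusted p otherwise reached 0.0493 without control replicate 3. SLC11A2 (adjusted p 0.0521 to 0.204), FTL (0.111 to 0.575) and NCOA4 (0.478 to 0.999) were called in none. ACO1 changed sign with upper-quartile scaling (-0.0044) and ranged from -0.030 to 0.068 with a library left out. SLC25A28 changed sign with library totals alone (0.0052) and without a count filter (0.0074) and ranged from -0.039 to 0.033 with a library left out, as SLC25A37 did from -0.0023 to 0.080. At a threshold of 0.01, 0 haem breakdown genes were lower, 2 haem synthesis genes higher, and 1 cluster assembly gene and 1 regulator lower. Lower storage genes numbered 2 with a filter of 1 CPM in 3 libraries and with upper-quartile scaling. With a library left out, lower genes numbered 0 to 1 in haem breakdown, 1 to 2 each in haem synthesis, storage, cluster assembly and regulators, and higher genes 2 to 4 in haem synthesis and 0 to 1 in storage. Of 36 called companion genes that the naming rule takes, 28 kept their call in all alternatives. The replicate block called 2846 genes higher and 2897 lower and changed no member's call (TFRC 0.81, FTH1 -0.41). Deviations of same-numbered libraries correlated at -0.0209, -0.00895 and -0.0107, and no library correlated best with its own number. So few libraries cannot show whether same-numbered ones were handled together. The median log2 fold change of all genes stayed between -0.027 and 0.00399 under every alternative. Depth limits SLC40A1, tested only without a count filter (-0.44, adjusted p = 0.881).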

Other observations

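Some genes of systemic iron handling had few counts in these libraries, unlike HFE and ERFE, which were tested. TF, which encodes transferrin, had 0 to 5 counts per library, and its second receptor TFR2 had 0 to 2. HAMP, the gene of the iron hormone hepcidin, had 3, 1 and 1 counts in the controls and 0 in each EV-labelled library, which allows up to 3 counts. The ferrireductase genes STEAP1 and STEAP2 had 0 to 2 and 0 to 4 counts, so STEAP3 was the member of that family with a measurable level among those listed here. ALAS2, the erythroid form of the first haem synthesis enzyme, had 0 counts in all 6 libraries.

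Among ferritin pseudogene rows 4 were tested. FTH1P2 was lower by a small margin (log2 fold change -0.54, adjusted p = 0.0497, edgeR), at 2.23, 2.82 and 2.93 CPM in the controls and 2.44, 1.51 and 1.49 CPM in the EV-labelled libraries. The groups overlapped, with EV replicate 1 above control replicate 1. FTLP3 was at 0.02 (adjusted p = 0.876). Whether reads in these rows come from the pseudogenes or from FTH1 and FTL was not tested.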
